A study of Mus musculus with 9 samples.

Results

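Resident macrophages of the marrow stand at the centre of erythroblast islands, where maturing red cell precursors attach to them, and 10 genes of these macrophages were followed across 3 groups of mouse marrow. The 10 genes were taken by symbol from a list that was chosen with earlier results of these data known. They are the complement genes C1qa, C1qb and C1qc, the surface genes Vcam1 and Adgre1, the heme and iron genes Hmox1, Slc40a1 and Cd163, and the uptake receptors Mertk and Mrc1. All 10 were measured, each by 1 probe set that is shared with no other gene, out of 19938 genes tested on Affymetrix whole-transcript arrays. The first group was femur marrow of 3 transgenic ERG mice of the C57BL6 strain, taken at signs of disease and holding a myeloid leukemia, with 1 mouse per array. The second was lineage-negative marrow of 9 wild type C57BL6 mice, depleted of cells that carry mature lineage markers and pooled as 3 mice per array on 3 arrays. The third was undepleted whole marrow of 3 wild type C57BL6 mice, with 1 mouse per array. The promoter and species of the ERG transgene, the ages of the mice and the antibodies of the depletion kit are unstated in the labels. The leukemias carry animal numbers in place of replicate numbers and are called leukemia 1, 2 and 3 in accession order.

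An island macrophage holds erythroblasts by adhesion molecules, takes up the nuclei they shed, and digests aged red cells. Heme released from those cells is opened by heme oxygenase, and the freed iron leaves through ferroportin for use in new hemoglobin. C1q, the recognition subunit of the classical complement pathway, is built from A, B and C chains and is made mainly by macrophages, as are the F4/80 antigen (Adgre1) and the engulfment receptors Mertk and Mrc1. None of these genes belongs to macrophages alone: Vcam1 is also made by stromal and endothelial cells, Slc40a1 by erythroid cells, and Adgre1 by monocytes and eosinophils.

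C1qa, C1qb and C1qc are neighbours on mouse chromosome 4 with no other gene among them in the RefSeq gene table. The 250 bases before the start that RefSeq's promoter table gives are shown for C1qb and C1qc, whose levels moved together, and for Mrc1, whose level did not follow them. Coordinates and sequences are from RefSeq, build GRCm38.p6, which held this window for 5 of the 10 genes. For C1qc that start lies downstream of the gene's outer end in the RefSeq gene table, so the last 22 bases of its window lie inside the gene, while the C1qb and Mrc1 windows end at the gene's edge. Each runs 5′ to 3′ on the gene's strand, and capitals mark the matches on either strand to 3 motifs: GAGGAAG, a site of the type bound by PU.1, CAGGAAG, a site of the type bound by ERG, and TGACNNNGC, the core of the antioxidant response element.
C1qb, chr4:136886201-136886450, minus strand: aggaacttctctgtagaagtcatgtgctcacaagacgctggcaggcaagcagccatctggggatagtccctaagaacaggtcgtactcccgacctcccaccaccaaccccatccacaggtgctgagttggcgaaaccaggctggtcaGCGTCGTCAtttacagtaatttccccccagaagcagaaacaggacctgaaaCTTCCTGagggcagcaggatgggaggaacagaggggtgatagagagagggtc
C1qc, chr4:136892915-136893164, minus strand: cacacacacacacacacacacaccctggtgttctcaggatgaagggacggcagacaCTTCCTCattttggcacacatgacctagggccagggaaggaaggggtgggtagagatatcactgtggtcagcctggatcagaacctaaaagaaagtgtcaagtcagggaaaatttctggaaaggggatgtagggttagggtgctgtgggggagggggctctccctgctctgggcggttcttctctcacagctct
Mrc1, chr2:14229164-14229413, plus strand: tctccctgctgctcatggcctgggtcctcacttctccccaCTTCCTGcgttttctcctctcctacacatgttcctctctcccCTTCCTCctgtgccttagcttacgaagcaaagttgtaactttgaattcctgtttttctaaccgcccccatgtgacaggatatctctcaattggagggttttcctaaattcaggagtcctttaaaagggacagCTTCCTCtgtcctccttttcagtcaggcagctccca
The C1qb window held 1 match to CAGGAAG with its first base at -52 from the table's start and 1 to TGACNNNGC at -103, and none to GAGGAAG. The C1qc window held 1 match to GAGGAAG at -194 and none to the others. The Mrc1 window held GAGGAAG at -168 and at -36, CAGGAAG at -210, and no TGACNNNGC. The Mertk and Cd163 windows held none of the 3. Among 32851 RefSeq promoter windows of the same length, 10.6% held GAGGAAG, 10.8% held CAGGAAG and 10.2% held TGACNNNGC. The matches between motifs do not overlap in these windows, and a match is a description of letters, not of binding.

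Levels are given as log2 of the deposited RMA intensity, a relative scale on which 1 unit is a doubling, and the median over all probe sets was an intensity of 33.4 (log2 5.06). The median of single arrays lay between 32.3 and 34.4. Replicate arrays correlated at 0.97 or above over all genes. The mouse Erg probe set read 6.60, 6.19 and 6.32 in the leukemias, 7.01, 6.55 and 6.84 in lineage-negative pools and 7.25, 7.60 and 7.01 in whole marrow, so it was lower in the leukemias; since the transgene's species is not given, this checks no label. Whole marrow array 2 stood apart in sex-linked genes, with Xist at 4.32 against at least 8.80 on every other array, while Eif2s3y was at 8.53 there, between 7.89 and 8.23 in the pools and at most 4.18 on the remaining arrays. The pools thus read high for both genes and the leukemias for Xist alone, so the groups also differed in sex-linked genes. Leaving out whole marrow array 2 does not remove that difference. The members' values without whole marrow array 2 are given where a call changed. Arrays stand for separate mice or pools, and no scan date or slide was available to test as a batch.

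The leukemias fell into unlike patterns gene by gene (the panel of levels for the 10 genes). The C1q genes and Adgre1 were high in leukemias 1 and 3 and low in leukemia 2. Vcam1, Slc40a1 and Mrc1 were below whole marrow in all 3 leukemias. Hmox1 and Mertk lay near whole marrow, and Cd163 stayed below the median intensity everywhere. Lineage-negative pools held the lowest group mean for 9 of the 10 genes, Cd163 being the exception.

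**Figure D1:**
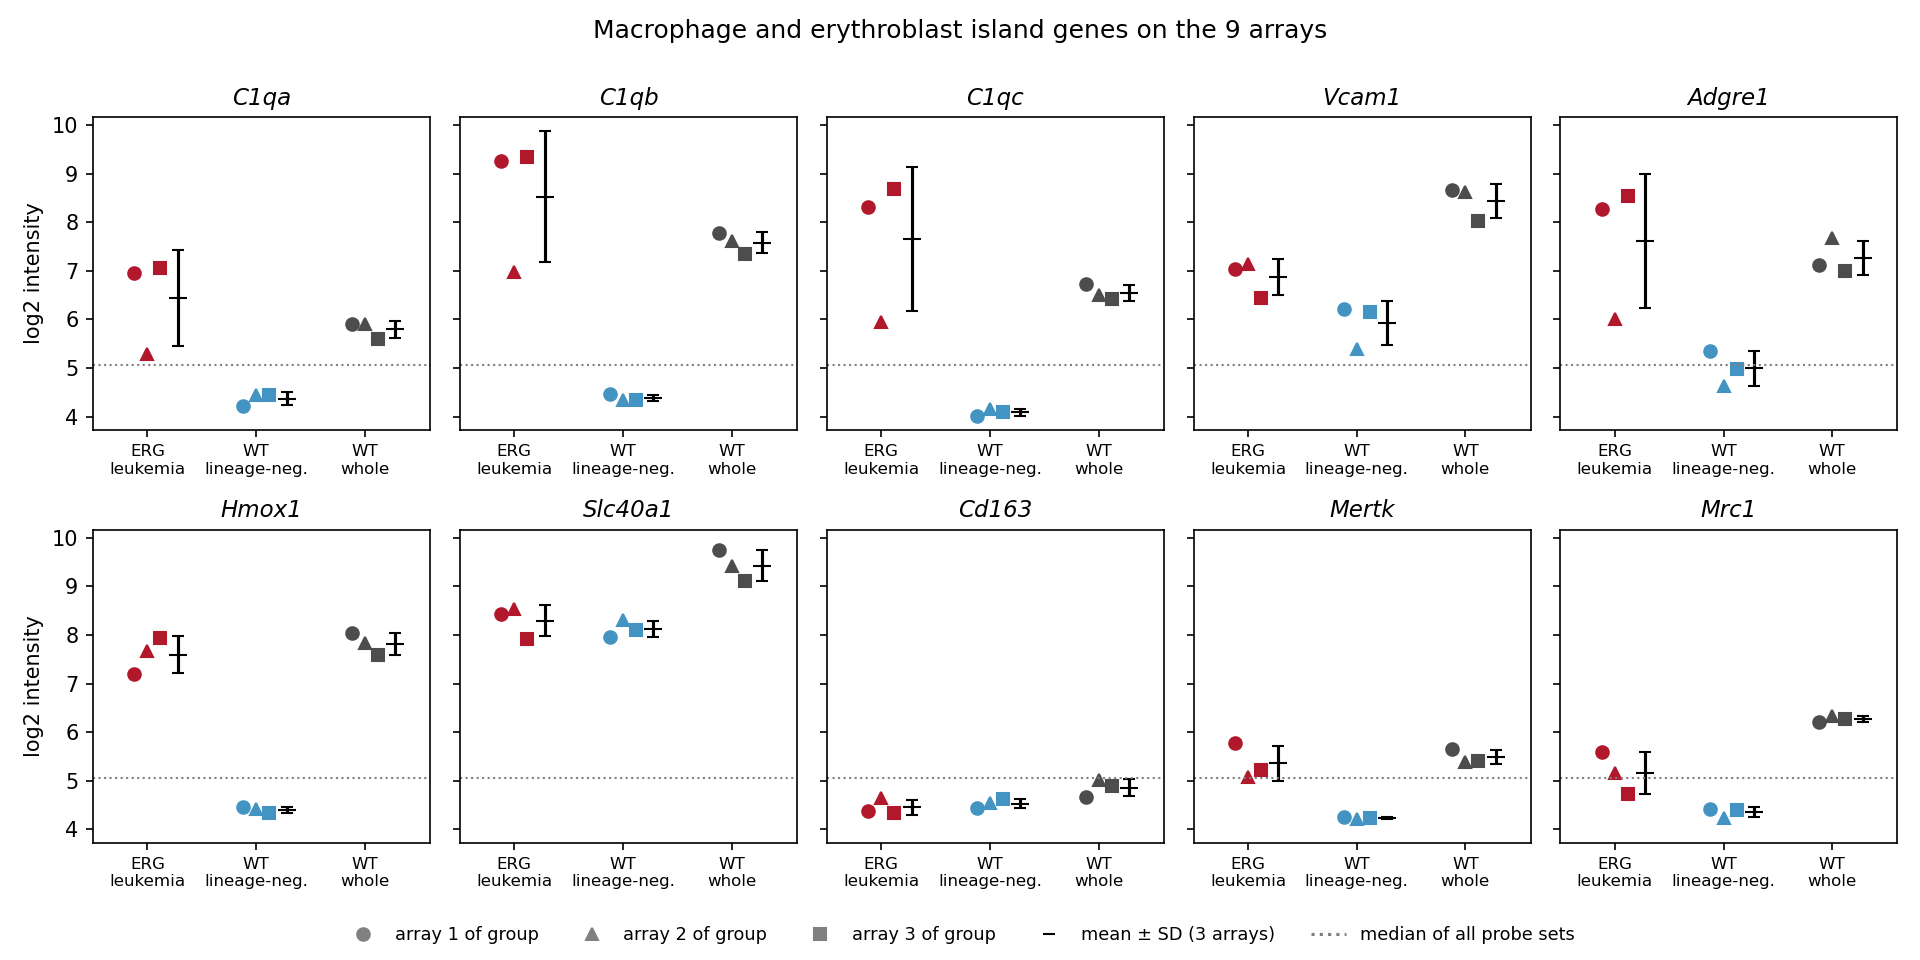
Log2 intensity (vertical axis) of the 10 genes on the 9 arrays, with leukemia, lineage-negative and whole marrow from left to right; circles, triangles and squares are arrays 1, 2 and 3 of a group, bars are mean ± SD (n = 3) and the dotted line is the median of all probe sets (log2 5.06). The triangle of the leukemias lies far below the other leukemias for C1qa, C1qb, C1qc and Adgre1, and the leukemias lie below whole marrow for Vcam1, Slc40a1 and Mrc1.

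Differences were tested for every gene in 1 limma model over the 9 arrays, two-sided, with Benjamini-Hochberg adjustment over all 19938 genes and a threshold of 0.05. Of the 10 members, 4 were lower and 0 higher in leukemia than in whole marrow. Over all genes 9.93% were called lower and 14.6% higher in that comparison, and the members' median difference was -0.17 against -0.02 for all genes. The same 4 members, and no others, had leukemia values wholly below whole marrow values, as 17.7% of all genes did. Against lineage-negative pools, 7 members were higher and 0 lower in leukemia, where 2.95% of all genes were called higher and 5.74% lower. Leukemia values lay wholly above those of the pools for 8 members, against 11.6% of all genes, and the members' median was 1.60 against 0.01 for all genes. Lineage-negative pools were lower than whole marrow for 9 members and higher for 0, where 13% of all genes were called lower and 21.7% higher. The pools lay wholly below whole marrow for 10 of 10 members, as 23.4% of all genes did, with a median of -2.09 for the members and -0.03 for all genes. Since the members were chosen with earlier results of these data known, their counts beside these shares are a description and test nothing. The shares called over all genes also stand beside the list counts below. Both comparisons with leukemia use the same 3 leukemias, and each wild type group enters 2 of the 3 comparisons. The pools were depleted of cells with mature lineage markers, so leukemia and depletion cannot be told apart in the comparison with them. Below, rose and fell mean a higher or lower level in leukemia than in the group named. In these mixed tissues, changes in macrophage number, in RNA of a gene per macrophage and in other cells that make it cannot be told apart.

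**Figure D2:**
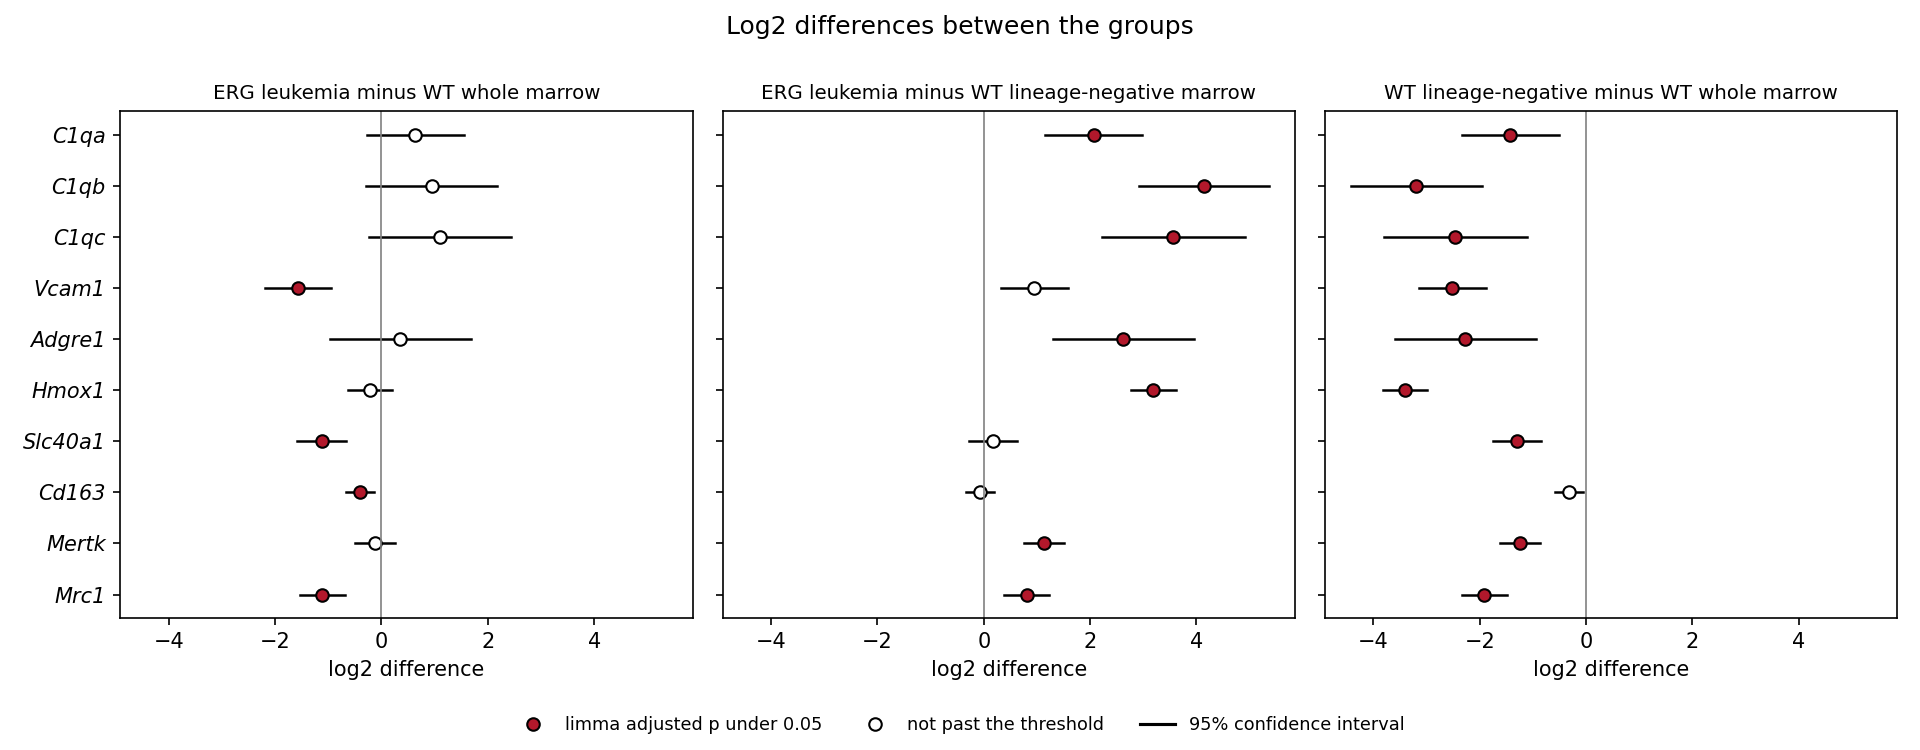
Log2 differences (horizontal axis) of the 10 genes in the 3 comparisons, with 95% confidence intervals; filled points are past an adjusted p of 0.05 in limma. Against whole marrow the 4 filled points of leukemia are Vcam1, Slc40a1, Cd163 and Mrc1, all left of 0, and the filled points against lineage-negative pools all lie right of 0.

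The complement genes were high in leukemias 1 and 3, low in leukemia 2 and near background in lineage-negative pools. C1qb, the B chain, measured 9.26, 6.97 and 9.34 in leukemias 1, 2 and 3, 4.47, 4.35 and 4.34 in the lineage-negative pools, and 7.78, 7.62 and 7.34 in whole marrow. Leukemias 1 and 3 were above every whole marrow array, leukemia 2 was below every one of them, and the pools did not overlap with either group. C1qc, the C chain, measured 8.31, 5.96 and 8.69 in the leukemias, 4.02, 4.15 and 4.09 in the pools, and 6.73, 6.50 and 6.41 in whole marrow. C1qa, the A chain, measured 6.96, 5.30 and 7.05 in the leukemias, 4.22, 4.44 and 4.45 in the pools, and 5.90, 5.91 and 5.60 in whole marrow. The order of the 3 leukemias was thus alike for the 3 chains, with the leukemias on both sides of whole marrow.

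Against whole marrow the differences of the C1q genes were not past the threshold in limma. C1qb differed by 0.94 ± 0.54 (SE, adjusted p = 0.263, 95% interval -0.28 to 2.17), C1qc by 1.10 ± 0.59 (adjusted p = 0.230, interval -0.24 to 2.44) and C1qa by 0.64 ± 0.40 (adjusted p = 0.316, interval -0.28 to 1.55). These intervals reach from a small decrease to increases above 1.5 log2 units. Without leukemia 2 the limma difference was 1.72 for C1qb (adjusted p = 0.000555), 1.95 for C1qc (adjusted p = 0.000498) and 1.21 for C1qa (adjusted p = 0.00141), so 1 array decided these calls.

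Against the lineage-negative pools, which were depleted of cells with mature lineage markers, all 3 C1q genes were higher in leukemia. C1qb was at least 17.6-fold higher (log2 4.14 ± 0.54, limma adjusted p = 0.00375), C1qc at least 11.8-fold (3.56 ± 0.59, adjusted p = 0.00939) and C1qa at least 4.19-fold (2.07 ± 0.40, adjusted p = 0.0174). The folds are of group means, and are written as at least because the pools lay below the median intensity, where background compresses differences. They are no bound for single leukemias. Leukemia 2 stood at 6.01-fold for C1qb, 3.65-fold for C1qc and 1.90-fold for C1qa over the mean of the pools, and leukemias 1 and 3 stood higher. The pools in turn were lower than whole marrow, by at least 9.15-fold for C1qb (-3.19 ± 0.54, adjusted p = 0.00191), 5.50-fold for C1qc (-2.46 ± 0.59, adjusted p = 0.0109) and 2.69-fold for C1qa (-1.43 ± 0.40, adjusted p = 0.0227). The C1qa calls were the less stable of these: 11 of 15 alternatives, most of them leaving out 1 array, kept it past the threshold against the pools (highest adjusted p = 0.0638) and 11 of 16 between the wild type groups (highest adjusted p = 0.0694). The limma model shares 1 spread per gene over the groups. The SEs of the C1q genes in the comparisons with leukemia thus hold the small SDs of wild type marrow and understate the leukemias' spread. With only the 2 groups compared in the fit, 4 members were called higher in leukemia than in the pools, in place of 7. For C1qa the SE between the wild type groups in turn holds the leukemias' SD of 0.99, against 0.13 in the pools and 0.18 in whole marrow. The lowest limma adjusted p between the wild type groups was 8.31e-05. Without whole marrow array 2, C1qa differed by -1.38 between the wild type groups (limma adjusted p = 0.0671).

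Adgre1, the gene of the F4/80 antigen by which mouse macrophages are recognised, had the same arrangement of the leukemias about whole marrow. It measured 8.28, 6.02 and 8.54 in the leukemias, 5.35, 4.64 and 4.99 in the pools, and 7.12, 7.67 and 7.00 in whole marrow. Leukemias 1 and 3 exceeded all whole marrow arrays and leukemia 2 fell short of all of them. The limma difference from whole marrow was 0.35 ± 0.58 (adjusted p = 0.744, interval -0.98 to 1.68). It was 1.15 without leukemia 2 (adjusted p = 0.0159) and -0.11 without leukemia 3, which was not past the threshold. Leukemia was at least 6.15-fold above the pools (2.62 ± 0.58, adjusted p = 0.0288), a call kept in 8 of 15 alternatives, with a highest adjusted p of 0.0935. That fold is of group means: leukemias 1, 2 and 3 stood at 9.75-fold, 2.04-fold and 11.7-fold over the mean of the pools. The pools were at least 4.82-fold below whole marrow (-2.27 ± 0.58, adjusted p = 0.0151), a call kept in 14 of 16 alternatives (highest adjusted p = 0.0563) and lost on leaving out pool 2 or whole marrow array 2 (-2.07, adjusted p = 0.0551, without that array). This SE too holds the leukemias' SD, 1.38 against 0.36 in the pools and 0.36 in whole marrow, and the SEs against leukemia understate the leukemias' spread. The lowest limma adjusted p between the wild type groups was 0.000195.

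The gap between leukemias was larger for these 4 genes than for the other 6. Leukemia 1 exceeded leukemia 2 by 3.16-fold for C1qa, 4.89-fold for C1qb, 5.10-fold for C1qc and 4.78-fold for Adgre1, and leukemia 3 exceeded it by 3.37-fold, 5.15-fold, 6.65-fold and 5.73-fold in the same gene order. Among all genes, 98.9% had a smaller range over the leukemias than C1qa, 99.7% than C1qb, 99.8% than C1qc and 99.7% than Adgre1, against 59.0% to 92.5% for the other 6 members. The median SD over the 10 members was 0.41 in leukemia, 0.10 in the pools and 0.20 in whole marrow, where all genes had medians of 0.13, 0.10 and 0.13. With 1 array per mouse, this spread describes the 3 leukemias sampled and cannot be split into animal and array.

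**Figure D3:**
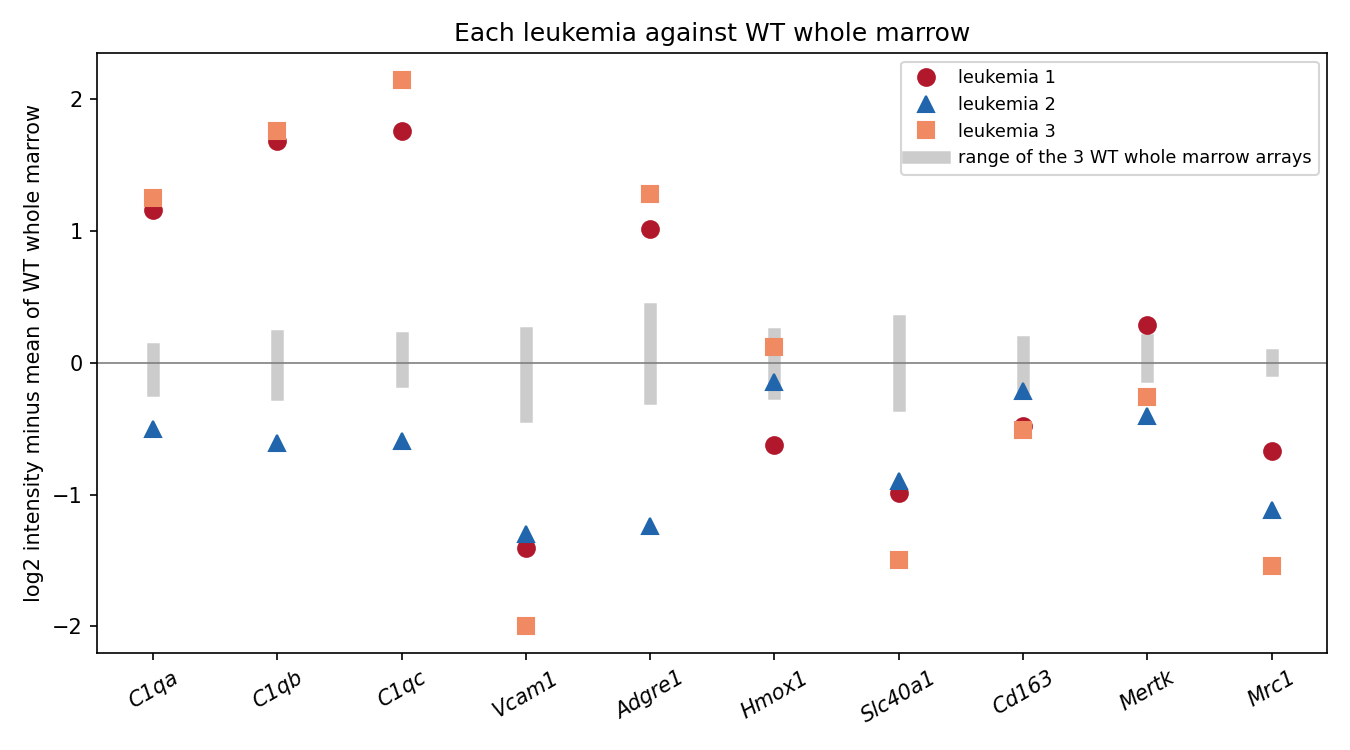
Log2 intensity of each leukemia minus the mean of whole marrow (vertical axis) for the 10 genes; the grey bar is the range of the 3 whole marrow arrays. Leukemias 1 and 3 lie above the bar for C1qa, C1qb, C1qc and Adgre1, leukemia 2 lies below it for the same genes, and all 3 lie below it for Vcam1, Slc40a1 and Mrc1.

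Relative to the mean of whole marrow, leukemia 1 stood at 2.23-fold for C1qa, 3.21-fold for C1qb, 3.39-fold for C1qc and 2.02-fold for Adgre1. Leukemia 3 stood at 2.38-fold, 3.38-fold, 4.41-fold and 2.42-fold, and leukemia 2 at a ratio of 0.707, 0.657, 0.664 and 0.423 for these genes. Over the 10 members, leukemia 1 was above every whole marrow array for 5 and below every one for 5. Leukemia 3 was above for 4, below for 5 and within their range for Hmox1. Leukemia 2 was below for 9 and within the range for Hmox1. All 3 leukemias were mostly above the pools: leukemia 2 exceeded every pool for 10 of 10 members, leukemia 1 for 9 and leukemia 3 for 8.

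Over the 9 arrays, the 6 pairs among C1qa, C1qb, C1qc and Adgre1 had Pearson r between 0.96 and 0.99, and between 0.97 and 1.00 without leukemia 2. Deviations from the group means gave 0.92 to 0.99. The largest deviations were those of leukemia 2, at -1.14 for C1qa, -1.55 for C1qb, -1.69 for C1qc and -1.59 for Adgre1. Their r without leukemia 2 was not computed. The wild type arrays did not all share an order: in pool 1 the deviation was -0.15 for C1qa and 0.36 for Adgre1. The points share arrays and groups, so the values describe these arrays. The genes most like the mean of the 3 C1q genes, out of 9908 searched, were Ms4a7 (r = 0.99), Clec4a3 (0.99), Clec4a1 (0.99), Fcgr4 (0.98), Clec4b1 (0.98), Adgre1 (0.97), Ctsb (0.96) and Ms4a4a (0.96). Fcgr4, an activating receptor for IgG on monocytes and macrophages, measured 10.13, 6.28 and 10.53 in the leukemias, 4.58, 4.31 and 4.56 in the pools, and 8.60, 8.73 and 7.73 in whole marrow. Clec4a1 and Fcgr4, which are also genes of nonclassical monocytes, thus followed C1q, and Clec4a1 measured 9.07, 6.92 and 9.42 in the leukemias, 4.80, 4.46 and 4.52 in the pools and 7.50, 8.23 and 7.52 in whole marrow. Adgre1 itself was most like Fcgr4 (0.99), Ms4a7 and Clec4a3.

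Vcam1, the adhesion molecule through which island macrophages hold the alpha4 beta1 integrin of erythroblasts, was lower in leukemia than in whole marrow. It measured 7.03, 7.14 and 6.44 in the leukemias, 6.21, 5.40 and 6.16 in the pools, and 8.67, 8.62 and 8.03 in whole marrow. The 3 groups did not overlap, and leukemia lay between the pools and whole marrow. Vcam1 fell by 1.57 ± 0.28 on the log2 scale against whole marrow (2.97-fold, limma adjusted p = 0.00452), in 15 of 15 alternatives. The 0.95 ± 0.28 by which it exceeded the pools was not past the threshold (adjusted p = 0.0709), although it passed in 2 of 15 alternatives (adjusted p = 0.0448 with centring on the 75th percentile). The pools were 5.73-fold below whole marrow (-2.52 ± 0.28, adjusted p = 0.000242).

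Genes listed as integrin and adhesion partners of Vcam1, not all of which bind it, went both ways. Against whole marrow the chains of alpha4 integrins rose in leukemia, while Itgb2 and Itgal, which form LFA-1, fell. Of 11 listed genes measured, 4 rose and 3 fell in leukemia against whole marrow, with a median of -0.07. Over all genes 14.6% were called higher and 9.93% lower. Against the pools these shares were 2.95% and 5.74%, and in the pools against whole marrow 21.7% and 13%. Itgb7, the beta7 chain that pairs with alpha4, was 1.07 ± 0.17 higher (limma adjusted p = 0.00267), Itga4, the alpha4 chain, 0.49 ± 0.13 higher (adjusted p = 0.0283), and Itgb1, the beta1 chain, 0.54 ± 0.13 higher (adjusted p = 0.0150). Itgb2, the leukocyte beta2 chain, was lower by -1.28 ± 0.26 (adjusted p = 0.00878) and Itgal, its LFA-1 partner, by -1.01 ± 0.23 (adjusted p = 0.0126). The count that rose was 1 with cyclic loess scaling and 2 without leukemia 2. Against the pools 2 of these genes rose, Itgb2 by 1.68 ± 0.26 (adjusted p = 0.00781) and Itgb7 by 1.37 ± 0.17 (adjusted p = 0.00285), and 0 fell. Between the wild type groups 1 was higher and 3 lower in the pools, Itgb2 by -2.96 ± 0.26 (adjusted p = 0.000107), Itgal by -1.75 ± 0.23 (adjusted p = 0.000516) and Selplg, the selectin ligand PSGL-1, by -1.14 ± 0.31 (adjusted p = 0.0205).

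The 3 heme and iron members gave 3 different profiles. Hmox1, heme oxygenase 1, which opens the heme ring, measured 7.19, 7.67 and 7.93 in the leukemias, 4.47, 4.41 and 4.34 in the pools, and 8.03, 7.82 and 7.58 in whole marrow. Leukemia and whole marrow overlapped and the pools lay far below both. The difference from whole marrow was -0.22 ± 0.18 (limma adjusted p = 0.474, interval -0.63 to 0.20). Leukemia was at least 9.12-fold above the pools (3.19 ± 0.18, adjusted p = 0.000153), and the pools were at least 10.6-fold below whole marrow (-3.41 ± 0.18, adjusted p = 3.09e-05), both past the threshold in every alternative tried. Leukemia 2 was not the low leukemia for this gene.

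Slc40a1, ferroportin, the exporter of iron from cells, was lower in leukemia and in the pools than in whole marrow. It measured 8.43, 8.53 and 7.92 in the leukemias, 7.96, 8.30 and 8.11 in the pools, and 9.74, 9.43 and 9.10 in whole marrow. Leukemia and pools overlapped, and all whole marrow arrays lay above both. It fell by 1.13 ± 0.20 on the log2 scale in leukemia against whole marrow (2.18-fold, limma adjusted p = 0.00462), in 15 of 15 alternatives. Leukemia and pools differed by 0.17 ± 0.20 (adjusted p = 0.718), and the pools were 2.46-fold below whole marrow (-1.30 ± 0.20, adjusted p = 0.00116). It was 1 of 2 members, with Vcam1, whose mean in the pools lay above the median intensity.

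Cd163, the receptor for hemoglobin bound to haptoglobin, was close to background on all arrays. It measured 4.38, 4.64 and 4.35 in the leukemias, 4.43, 4.54 and 4.62 in the pools, and 4.67, 5.01 and 4.88 in whole marrow, all below the median intensity. The leukemia values lay just under those of whole marrow, a difference of -0.40 ± 0.11 (at least 1.32-fold, limma adjusted p = 0.0336). That call was lost in 5 of 14 alternatives, among them without whole marrow array 2 (adjusted p = 0.102), whole marrow array 3 (0.0876), leukemia 1 (0.0936) or leukemia 3 (0.103). The differences of leukemia from the pools (-0.08 ± 0.11, adjusted p = 0.791) and of the pools from whole marrow (-0.32 ± 0.11, adjusted p = 0.0573) were not past the threshold.

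Of 21 other measured genes listed for heme and iron recycling, 8 rose and 1 fell in leukemia against whole marrow, with a median of 0.12. The list also held Nqo1, Gclm and Keap1, which do not themselves handle heme or iron, and these are among the genes that rose. The shares of all genes were 14.6% higher and 9.93% lower, with 2.95% and 5.74% against the pools. In the pools against whole marrow they were 21.7% and 13%. Nqo1, a quinone reductase and target of the NRF2 factor, rose at least 5.93-fold (2.57 ± 0.29, limma adjusted p = 0.000959). Slc11a2, the iron importer DMT1, rose by 1.58 ± 0.26 (adjusted p = 0.00318) and Gclm, the modifier subunit of the first enzyme of glutathione synthesis, by 1.45 ± 0.11 (adjusted p = 0.000398). The remaining genes that rose were Slc11a2's endosomal partner Steap3, the heme transporter Slc48a1, the biliverdin reductases Blvra and Blvrb, and Keap1, by 0.67 to 1.25. Ncoa4, the receptor that sends ferritin to lysosomes, was lower by -0.79 ± 0.16 (adjusted p = 0.00758). Steap3, Slc11a2, Slc48a1, Blvrb and Keap1 were also higher in the pools than in whole marrow. Against the pools 4 genes rose and 1 fell in leukemia: Hp, haptoglobin, by 2.50 ± 0.37 (adjusted p = 0.00585), Lrp1, the receptor for heme bound to hemopexin, by 2.29 ± 0.33 (adjusted p = 0.00545), and Slc48a1 by 0.59 ± 0.14 (adjusted p = 0.0324) were the largest. Between the wild type groups 7 genes were higher and 5 lower in the pools, Hp by -3.57 ± 0.37 (adjusted p = 0.000184) and Lrp1 by -2.16 ± 0.33 (adjusted p = 0.00110). Without whole marrow array 1, 2 of these genes rose against the pools, and with cyclic loess scaling 4 fell against whole marrow.

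Mertk and Mrc1 are uptake receptors of macrophages: Mertk binds dying cells through bridging proteins, and Mrc1, the mannose receptor, takes up glycoproteins. Mertk measured 5.77, 5.09 and 5.23 in the leukemias, 4.26, 4.22 and 4.23 in the pools, and 5.66, 5.39 and 5.42 in whole marrow, so leukemia and whole marrow overlapped above the pools. Its difference from whole marrow was -0.13 ± 0.16 (limma adjusted p = 0.661, interval -0.50 to 0.25). Leukemia was at least 2.18-fold above the pools (1.12 ± 0.16, adjusted p = 0.00585) and the pools were at least 2.38-fold below whole marrow (-1.25 ± 0.16, adjusted p = 0.000555). Both calls held in every alternative tried.

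Mrc1 measured 5.59, 5.15 and 4.72 in the leukemias, 4.43, 4.23 and 4.39 in the pools, and 6.21, 6.33 and 6.26 in whole marrow. The 3 groups did not overlap. Leukemia 3 lay below the median intensity of log2 5.06, where background compresses differences. Mrc1 fell by 1.11 ± 0.19 on the log2 scale in leukemia against whole marrow (2.16-fold, limma adjusted p = 0.00375), in 15 of 15 alternatives. It was at least 1.75-fold above the pools (0.81 ± 0.19, adjusted p = 0.0334), a call kept in 8 of 15 alternatives with a highest adjusted p of 0.106, and the pools were at least 3.77-fold below whole marrow (-1.92 ± 0.19, adjusted p = 0.000148). Leukemia 1 held the highest leukemia value of both uptake receptors.

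Among 26 measured engulfment genes outside the 10, 1 rose and 3 fell in leukemia against whole marrow, with a median of -0.14. These counts stand beside 14.6% of all genes called higher and 9.93% lower. The counts below stand beside 2.95% and 5.74% against the pools, and 21.7% and 13% between the wild type groups. Cd36, a scavenger receptor that is also made by erythroid progenitors, rose 5.30-fold (2.41 ± 0.42, limma adjusted p = 0.00440), and it was 2.68 ± 0.42 above the pools (adjusted p = 0.00770). Elmo1 and Dock1 encode the partners that activate Rac during engulfment, and Elmo1 fell by 1.77 ± 0.34 on the log2 scale (adjusted p = 0.00673) and Dock1 by 1.05 ± 0.29 (adjusted p = 0.0321). Itgb3, the beta3 integrin of platelets and phagocytes, was lower by -1.47 ± 0.30 (adjusted p = 0.00813) and lower than the pools by -2.80 ± 0.30 (adjusted p = 0.00159). In all, 5 rose and 3 fell against the pools. Between the wild type groups 4 were higher and 6 lower in the pools, among them Axl, the receptor related to Mertk, by -1.65 ± 0.17 (adjusted p = 0.000200), and Itgb3 was higher by 1.34 ± 0.30 (adjusted p = 0.00750). Without whole marrow array 1, 3 genes were lower in the pools, and centring on the 75th percentile gave 5 that fell in leukemia against whole marrow. Axl was also the gene most like Mertk over the 9 arrays (r = 0.98), measuring 6.17, 5.44 and 5.81 in the leukemias, 4.68, 4.53 and 4.48 in the pools and 6.39, 6.22 and 6.04 in whole marrow.

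Complement genes outside C1q were split in direction. Of 20 measured, 2 rose and 4 fell in leukemia against whole marrow, with a median of -0.05. With so few genes these counts are near the shares of all genes, 14.6% higher and 9.93% lower. Those shares were 2.95% and 5.74% against the pools, and 21.7% and 13% in the pools against whole marrow. Cd59a, which blocks the membrane attack complex on a cell's own surface, rose 12.2-fold (3.61 ± 0.38, limma adjusted p = 0.000776) and was also 1.62 ± 0.38 above the pools (adjusted p = 0.0355). Itgam, the alpha chain of complement receptor 3, fell by 1.52 ± 0.33 on the log2 scale (adjusted p = 0.0113), and C5ar1, the receptor for C5a, by 1.23 ± 0.30 (adjusted p = 0.0168). Both were above the pools, by 3.32 ± 0.33 (adjusted p = 0.00125) and 2.72 ± 0.30 (adjusted p = 0.00170). The count that fell was 1 without whole marrow array 2 and 2 without leukemia 2. Against the pools 3 rose and 1 fell, and 6 rose without leukemia 2. Between the wild type groups 3 were higher and 5 lower in the pools, Itgam by -4.85 ± 0.33 (adjusted p = 5.63e-05), C5ar1 by -3.96 ± 0.30 (adjusted p = 6.65e-05) and Cfp, properdin, by -2.20 ± 0.32 (adjusted p = 0.000891).

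Erythroblast island partners also went both ways. Of 15 measured, 5 rose in leukemia against whole marrow, all genes of the erythroblast side or of integrins: Epor, the erythropoietin receptor, by 2.00 ± 0.37 (limma adjusted p = 0.00580), Klf1, an erythroid transcription factor, by 1.51 ± 0.31 (adjusted p = 0.00864), and Icam4, Itga4 and Itgb1. The 2 that fell were Ptprc, the pan-leukocyte antigen CD45, by 1.63 ± 0.38 on the log2 scale (adjusted p = 0.0142), and Siglec1. The median was 0.23, and 3 rose with cyclic loess scaling and 1 fell without whole marrow array 1. Over all genes 14.6% were called higher and 9.93% lower in that comparison. Against the pools the shares were 2.95% and 5.74%, and in the pools against whole marrow 21.7% and 13%. Siglec1, the sialoadhesin of island macrophages, measured 5.06, 4.96 and 4.80 in the leukemias, 4.35, 4.33 and 4.52 in the pools, and 5.50, 5.31 and 5.33 in whole marrow. Its 3 groups did not overlap, with leukemia lower than whole marrow by -0.44 ± 0.10 (adjusted p = 0.0114) and above the pools by 0.54 ± 0.10 (adjusted p = 0.0127), at values around the median intensity or under it. Spic, a transcription factor of iron-recycling macrophages, measured 5.67, 5.18 and 6.89 in the leukemias, 4.50, 4.57 and 4.67 in the pools and 5.95, 5.51 and 5.58 in whole marrow, and its difference from whole marrow was not past the threshold (0.23 ± 0.36, adjusted p = 0.727). Against the pools Siglec1 was the 1 island gene that rose, and 4 rose without leukemia 2. Between the wild type groups 5 were higher and 4 lower in the pools, Epor by 2.11 ± 0.37 (adjusted p = 0.00235), Klf1 by 1.67 ± 0.31 (adjusted p = 0.00304) and Ptprc by -2.53 ± 0.38 (adjusted p = 0.00101).

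Of 17 measured transcription factors and growth factor receptors of macrophages, 1 rose and 2 fell in leukemia against whole marrow, with a median of -0.14. The shares of all genes there were 14.6% higher and 9.93% lower. They were 2.95% and 5.74% against the pools, and 21.7% and 13% in the pools against whole marrow. Pparg, a nuclear receptor of lipid-handling macrophages, rose by 1.54 ± 0.45 (limma adjusted p = 0.0359), Csf2ra, the GM-CSF receptor alpha chain, fell by 0.93 ± 0.26 on the log2 scale (adjusted p = 0.0294), and Csf1, the macrophage growth factor, fell by 0.92 ± 0.22 (adjusted p = 0.0168). None was called lower without whole marrow array 1. Against the pools 2 rose, Pparg by 2.26 ± 0.45 (adjusted p = 0.0187) and Maf by 0.72 ± 0.14 (adjusted p = 0.0192), and Csf1 fell by 1.25 ± 0.22 (adjusted p = 0.0121). The count that rose was 9 without leukemia 2 and 0 without lineage-negative pool 1. In the pools against whole marrow 7 were lower and 0 higher, with Spi1, which encodes PU.1, at -1.84 ± 0.40 (adjusted p = 0.00677), Csf2ra at -1.74 ± 0.26 (adjusted p = 0.000971) and Csf1r, the CSF1 receptor, at -1.17 ± 0.38 (adjusted p = 0.0428). The count was 4 without whole marrow array 1.

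Marker lists of cell types that marrow holds were read beside the 10 genes, as summed intensities per array. For all marker counts, the shares of all genes called higher and lower in leukemia were 14.6% and 9.93% against whole marrow. They were 2.95% and 5.74% against the pools, and 21.7% and 13% in the pools against whole marrow. The macrophage list of 20 other genes summed to 6591 to 9970 in the leukemias, 1547 to 2723 in the pools and 8335 to 9415 in whole marrow, and its lowest leukemia was leukemia 2. Of these genes 1 was higher (Apoe) and 2 lower (Aif1, Siglec1) in leukemia than in whole marrow, with 5 higher without leukemia 2. Against the pools 11 were higher and 0 lower, with 16 higher without leukemia 2 and 6 without lineage-negative pool 1, and 16 were lower and 0 higher in the pools than in whole marrow. The monocyte list of 11 genes summed to 6288 to 12269 in the leukemias, 1801 to 3756 in the pools and 9959 to 13385 in whole marrow, again lowest among the leukemias in leukemia 2. In leukemia 0 of its genes were higher and 1 lower than in whole marrow, and 5 were higher and 0 lower than in the pools, or 8 higher without leukemia 2, while 6 were lower and 0 higher in the pools than in whole marrow. Siglec1, Timd4, Cd5l, Axl and Csf1r of the macrophage list, and Itgam of the monocyte list, also stand in the pathway lists above. Ly6c1 and Ly6c2 of the monocyte list were not measured. Bright genes weigh most in a sum: in whole marrow Chil3 of that list read 11.88, 11.89 and 11.52, and Itgam 10.96, 11.06 and 10.67. The part of macrophage or monocyte number in the C1q and Adgre1 values was not tested.

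The 11 neutrophil genes summed to 13852 to 22355 in the leukemias, 627 to 2013 in the pools and 38055 to 44434 in whole marrow, with 7 lower in leukemia than in whole marrow (4 without whole marrow array 1 or without leukemia 2), 10 higher in leukemia than in the pools and 11 lower in the pools than in whole marrow. The 7 eosinophil genes summed to 317 to 412 in the leukemias, 1267 to 2570 in the pools and 935 to 1607 in whole marrow, and 6 were lower in leukemia than in whole marrow and 4 lower than in the pools. The 9 erythroblast genes summed to 3706 to 7262 in the leukemias, 3989 to 5681 in the pools and 1231 to 3596 in whole marrow, and 5 were higher than whole marrow in leukemia (8 without leukemia 1) and 5 in the pools, with Epor and Klf1 shared with the island list. The 10 dendritic cell genes summed to 553 to 1242 in the leukemias, 654 to 1163 in the pools and 1246 to 1947 in whole marrow, with 3 lower in leukemia than in whole marrow (1 without leukemia 2 or without whole marrow array 3). Endothelial and stromal lists, which hold the other main sources of Vcam1, were dim: 6 to 9 of 11 endothelial genes and 9 to 11 of 14 stromal genes lay below the median intensity in the leukemias, and in whole marrow 8 and 9 to 11. Endothelial genes summed to 403 to 551 in the leukemias, 554 to 831 in the pools and 416 to 509 in whole marrow. Stromal genes summed to 362 to 430 in the leukemias, 377 to 458 in the pools and 419 to 454 in whole marrow. Against whole marrow 1 endothelial gene and 2 stromal genes were lower in leukemia and 1 stromal gene was higher. The part of these cells in the Vcam1, Slc40a1 and Mrc1 values was not tested.

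**Figure D4:**
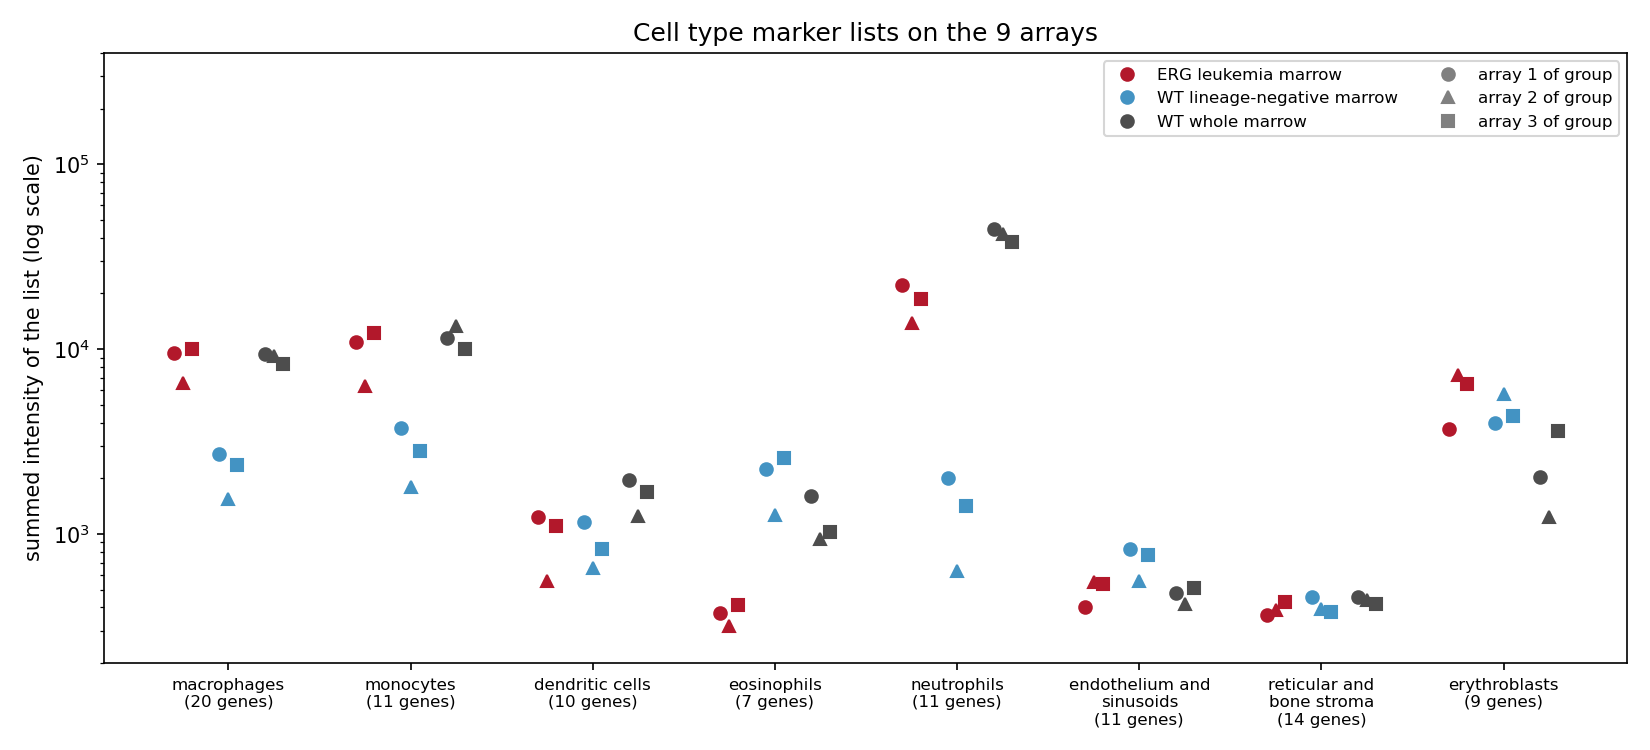
Summed intensity of 8 cell type marker lists (vertical axis, log scale) on the 9 arrays, with leukemia, lineage-negative and whole marrow from left to right within each list; circles, triangles and squares are arrays 1, 2 and 3 of a group. Among the leukemias the triangle, leukemia 2, is lowest for macrophages and monocytes, and the neutrophil sums of the leukemias (13852 to 22355) lie below those of whole marrow (38055 to 44434).

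The members outside C1q and Adgre1 were most like other genes. Over the 9 arrays, Vcam1 was most like Cds2 (r = 0.99), Klf6 (0.99) and Zfand3 (0.99), and Mrc1 most like Adam8 (0.99), Krtap5-1 (0.99) and Trem1 (0.98). Slc40a1 was most like Fam160b1 (0.99), Rab11fip1 (0.98) and Stim1 (0.97), and Hmox1 most like Chil4 (0.99), Chil3 (0.98) and S100a9 (0.97). Mertk was followed most closely by Axl, Orm1 (0.97) and Samsn1 (0.97), and Cd163 by Adamts9 (0.95), Cyb5r4 and Lbx1. Among the members, Vcam1 and Mrc1 had r = 0.96, Vcam1 and Slc40a1 0.91, Slc40a1 and Mrc1 0.89, and Hmox1 and Mertk 0.92. The points are the same 9 arrays in 3 groups, so differences between groups enter each of these values.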

How the data were processed

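Bone marrow RNA of 15 mice was hybridised as 9 samples on 9 Affymetrix arrays. The deposited intensity values are linear and were made with RMA in Partek, per the submitters' processing notes; neither versions nor a genome build was given in the sources used here. The values were log2-transformed here with no further normalization. Of 28853 probe sets, 21789 had 1 symbol in the platform annotation, 1621 several and 5443 none; the brightest probe set stood for each of 999 genes with several, which left 19938 genes. RefSeq matched 19856 of them by Entrez identifier.

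Differences were tested with limma (version 3.58.1, under R 4.3.3; lmFit and eBayes without trend), with 1 mean per group over all 9 arrays, with no filter on dim genes. Each of the 3 comparisons was read at a Benjamini-Hochberg adjusted p of 0.05. The self-test on simulated data for leukemia against whole marrow, with 19938 genes, recovered 72 of 100 genes changed by 1 log2 unit and 97 of 100 changed by 2, with 5 false calls. Only 3 arrays per group limit the precision.

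The 10 members, 6 pathway lists and 8 marker lists were chosen with earlier results of these data known. From each pathway list the up to 3 genes with the largest difference past the threshold were named in each comparison; a few more (Itga4, Itgb1, Dock1, Axl, Ncoa4, Steap3, Icam4, Spic and others) were named after their values were seen. Likeness is Pearson r among 9908 genes whose mean exceeded the median of all probe sets, without predicted genes, clone names and olfactory receptors, 3 per member and 8 for the C1q mean. Alternatives were 75th percentile centring, cyclic loess, a filter on dim genes, only the 2 groups compared, a trended robust variance, the mean of a gene's probe sets, a replicate block and leaving out each array. Those for the lists were added after seeing the data. Each member has 1 probe set, so the mean of probe sets left the members' values unchanged.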

Additional observations from a re-analysis of the deposited data

How the results depend on the processing

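No called difference of a member changed sign under any alternative. Between lineage-negative and whole marrow, centring on the 75th percentile gave 3887 genes lower in place of 2587. Fitting only the 2 groups compared gave 4 members higher in leukemia than in the pools in place of 7. Leaving out 1 array gave 1248 to 1915 genes lower in leukemia than in whole marrow (1980 with all arrays), and 268 to 827 higher (589) and 490 to 1174 lower (1144) against the pools. It gave 4 to 7 members higher against the pools, and 0 to 4 members higher against whole marrow, 4 being the count without leukemia 2. Centring on the 75th percentile also moved the whole-array split of leukemia against whole marrow to 2078 higher and 2575 lower, and cyclic loess to 2093 and 2505, from 2901 and 1980. Against the pools the split was 743 higher and 845 lower with that centring, 775 and 791 with cyclic loess, and 589 and 1144 as reported; between the wild type groups it was 3143 and 3887, 3030 and 3323, and 4328 and 2587. That centring moved the median difference of all genes to -0.13 for leukemia against whole marrow and -0.19 for the pools against whole marrow, from -0.02 and -0.03.

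The wild type groups share replicate numbers in the labels but come from different mice. Deviations of same-numbered arrays correlated at 0.31, -0.01 and -0.01, and 1 of 3 pools correlated best with its own number. With the replicate block 4346 genes were higher and 2547 lower in the pools, and 10 members were lower, Cd163 passing the threshold (-0.32, limma adjusted p = 0.0408). Dim values limit the size of every change in which a group lay below the median intensity, as 8 of 10 members did in the pools.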

Other observations

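Cd5l, a secreted protein of tissue macrophages outside the 10 genes, was above every whole marrow array in leukemias 1 and 3 and below every one in leukemia 2, the arrangement of the C1q genes. It measured 5.97, 4.35 and 4.91 in leukemias 1, 2 and 3, 4.07, 3.90 and 3.93 in the lineage-negative pools, and 4.58, 4.67 and 4.41 in whole marrow, and its difference from whole marrow was not past the threshold (0.53 ± 0.34, limma adjusted p = 0.321). Apart from leukemia 1, all these values lay below the median intensity (log2 5.06). Leukemia 2, at 4.35, was only just under the lowest whole marrow array, at 4.41, so this order is that of dim values. Timd4, a phosphatidylserine receptor of resident macrophages, differed by -0.32 ± 0.11 in leukemia against whole marrow (adjusted p = 0.0708). Apoe, the lipid carrier made by many macrophages, was 1.44 ± 0.27 higher (adjusted p = 0.00591). Csf1r differed by -0.39 ± 0.38 (adjusted p = 0.546).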
